A study of Mus musculus with 26 samples.

Results

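A group of 8 mouse genes was described here: Hmga2, Tnfrsf12a, Map3k8, 1700027L20Rik, 9330188P03Rik, Fam198a, Spon2 and Tph2. They were selected on measured values, as genes called changed in rd10 retinas after both UNC0642 and Romidepsin, and make up 8 of the 37991 genes in the table of read counts. Each symbol matched 1 Ensembl identifier. Because the values in those 2 experiments chose the genes, levels and fold changes there are given as a description with no test, and tests are given for the experiments that the selection did not use. The name of the group did not hold for Map3k8 in the calls made here. These calls applied the thresholds of the study anew to the counts. The thresholds were a likelihood ratio test with adjusted p under 0.05, and a log2 fold change beyond 1 in either direction. All 8 genes were called in the UNC0642 experiment and 7 in the Romidepsin experiment, where Map3k8 had a log2 fold change of −0.45.

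The rd10 mouse carries a mutation in Pde6b, the rod phosphodiesterase, and loses its rods in the first weeks after birth, which makes it a model of Retinitis Pigmentosa. Mice of strain B6.CXB1-Pde6brd10/J were injected with an inhibitor of a chromatin enzyme or with its diluent from postnatal day 9 (PN9), and whole retinas were collected at PN24. The experiments compared 2 control with 2 treated libraries for UNC0642 (an inhibitor of the histone methyltransferases EHMT2 and EHMT1), 3 with 3 for Romidepsin (an inhibitor of histone deacetylases), 4 with 2 for DZNep and 3 with 3 for UNC1999 (both inhibitors of the histone methyltransferase EZH2). In a separate experiment, 2 control libraries and 2 libraries treated with GSK2879552, an inhibitor of the histone demethylase LSD1, came from rods sorted from rd10 mice that also carried Nrl-EGFP, a green fluorescent protein driven by the rod promoter Nrl. These mice were injected from PN9 to PN24 as well. All mice, controls included, were thus rd10, and no healthy retina was compared. The labels do not say whether a library is 1 animal or a pool, so p-values measure the spread between libraries. The retina libraries held 13732959 to 36354094 counted reads each and the rod libraries 7289460 to 19864491. Levels are given as CPM, a count scaled to the same library size in every library, and a count of 3 corresponds to 0.0825 to 0.412 CPM. In the sorted rods, the summed level of 10 rod markers was 51910 to 79680 CPM, and that of 6 Müller glia markers 189 to 318 CPM. All whole retina libraries had both sets, with 8187 to 69900 CPM of rod markers.

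The 8 genes have no single pathway in common. Hmga2 encodes a chromatin protein that binds AT-rich DNA and is known from embryonic and progenitor cells. Tnfrsf12a encodes Fn14, the receptor of the cytokine TWEAK, which growth factors and tissue injury induce. Map3k8 encodes the kinase TPL2, which links inflammatory receptors to the MEK and ERK kinases and is held inactive by the NF-kB precursor encoded by Nfkb1 together with Tnip2. In RefSeq, 1700027L20Rik is an older name of Prss56, a trypsin-like serine protease that in the mouse retina is known from Müller glia, the supporting glia that span all layers. The locus 9330188P03Rik is a long non-coding RNA in RefSeq and a protein-coding gene in the annotation of the read counts. Fam198a, now Gask1a, encodes a protein of the Golgi and the secretory pathway. Spon2 encodes a secreted protein of the extracellular matrix related to F-spondin, and Tph2 encodes the neuronal enzyme that catalyses the rate-limiting step of serotonin synthesis.

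On NCBIM37, the build of the deposited counts, Hmga2 lies at chr10:119798331-119913525 and Tph2 at chr10:114515697-114622078, both on the minus strand. Tnfrsf12a lies at chr17:23812414-23814416 and Spon2 at chr5:33556167-33560887, again on the minus strand. The plus strand carries 1700027L20Rik at chr1:89083240-89084978, 9330188P03Rik at chr14:105988844-105993124 and Fam198a at chr9:121860104-121889326. The counts were made over exons. The body of Hmga2 also holds Mir763 on its own strand and, on the opposite strand, the non-coding genes 1700006J14Rik and 9230105E05Rik, and the end of Tnfrsf12a overlaps the end of Hcfc1r1, which is on the opposite strand. Whether the counting used strand is not given in the sources used here, so reads of these partners could not be told apart from those of Hmga2 and Tnfrsf12a. The 3 partners within Hmga2 had too few reads to be tested in any of the 5 experiments.

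The promoters of Hmga2, Tnfrsf12a and 1700027L20Rik are shown because the levels of these genes moved together across the libraries, and that of Tph2 because it was low in treated retinas of 3 experiments. The locus 9330188P03Rik moved with the first 3 as well, but the promoter sequences used here held none for it, nor for Spon2. Each is the 250 bases before the start of the gene in RefSeq (GRCm38.p6), read 5′ to 3′ on the strand of the gene. Capitals mark every match, on either strand, to 1 of 8 motifs: AP-1 (TGANTCA), CRE (TGACGTCA), E-box (CACGTG), GC box (GGGCGG), EGR (GCGNGGGCG), the TATA box (TATAAA), the core of OTX or CRX sites (TAATCC), and a loose NF-kB pattern (3 G, any 5 bases, 2 C).
Hmga2, chr10:120476470-120476719, minus strand: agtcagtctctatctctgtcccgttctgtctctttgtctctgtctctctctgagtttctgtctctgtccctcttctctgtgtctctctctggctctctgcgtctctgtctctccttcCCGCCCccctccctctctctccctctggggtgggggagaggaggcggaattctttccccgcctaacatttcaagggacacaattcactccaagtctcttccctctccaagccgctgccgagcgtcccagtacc
Tnfrsf12a, chr17:23677450-23677699, minus strand: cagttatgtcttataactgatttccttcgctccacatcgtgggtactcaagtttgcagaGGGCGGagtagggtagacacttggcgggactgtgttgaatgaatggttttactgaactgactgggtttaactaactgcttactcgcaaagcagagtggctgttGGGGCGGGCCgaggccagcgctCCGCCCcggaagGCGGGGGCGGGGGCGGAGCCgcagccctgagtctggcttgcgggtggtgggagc
1700027L20Rik (Prss56), chr1:87183064-87183313, plus strand: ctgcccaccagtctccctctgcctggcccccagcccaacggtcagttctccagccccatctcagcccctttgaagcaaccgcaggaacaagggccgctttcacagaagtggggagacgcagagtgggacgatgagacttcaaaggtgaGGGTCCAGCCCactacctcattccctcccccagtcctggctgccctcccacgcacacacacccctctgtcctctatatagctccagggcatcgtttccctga
Tph2, chr10:115185023-115185272, minus strand: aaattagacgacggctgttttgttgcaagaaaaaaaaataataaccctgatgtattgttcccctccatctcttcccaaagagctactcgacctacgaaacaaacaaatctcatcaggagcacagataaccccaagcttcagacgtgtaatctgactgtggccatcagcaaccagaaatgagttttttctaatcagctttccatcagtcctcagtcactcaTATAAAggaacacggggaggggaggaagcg

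No motif of the 8 was present in all 3 promoters shown for genes that moved together, and 9330188P03Rik could not be looked at. The Tnfrsf12a window held 5 GC boxes and 2 EGR matches, some overlapping each other, together with 2 matches to the NF-kB pattern, the Hmga2 window 1 GC box, and the Prss56 window only 2 overlapping matches to the NF-kB pattern. Tph2 had a TATA box that begins 30 bases before the start. Of 32851 RefSeq promoters cut to the same length, 32.7% held a GC box, 4.7% an EGR match, 12.4% a TATA box and 45.8% the NF-kB pattern. The AP-1 (6.75% of promoters), CRE (1.55%), E-box (6.02%) and OTX or CRX (6.25%) letters were not in the 4 windows.

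After UNC0642, the chromatin protein gene Hmga2 and the receptor gene Tnfrsf12a were both higher. Hmga2 stood at 6.51 and 5.08 CPM in the 2 controls and at 20.3 and 20.8 CPM in the 2 treated retinas. Its mean level was 3.54-fold higher, with a log2 fold change of 1.81 ± 0.156 (SE). Both treated retinas lay above both controls and were the highest of the 22 retina libraries. Of all 16321 genes tested after UNC0642, 52.1% had groups without overlap, in either direction. Tnfrsf12a had 25.6 and 19.0 CPM in controls and 47.0 and 56.2 CPM after UNC0642, a log2 fold change of 1.20 ± 0.158.

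Map3k8 set the UNC0642 experiment apart from the others. The kinase gene had 6.28 and 6.78 CPM in the controls and 24.8 and 49.8 CPM in the treated retinas (log2 fold change 2.51 ± 0.325), and no other retina library exceeded 7.05 CPM. Levels of 1700027L20Rik were 47.2 and 11.2 CPM in controls and 208 and 149 CPM after treatment, a log2 fold change of 2.60 ± 0.564. Its 2 controls differed from each other more than those of any other of the 8 genes, and the fold change was 4.00 without control replicate 1 and 1.92 without control replicate 2. The non-coding 9330188P03Rik had 4.60 and 3.47 CPM in controls and 7.85 and 8.57 CPM after UNC0642 (log2 fold change 1.01 ± 0.203), close to the threshold of 1.

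The 3 remaining genes were lower after UNC0642, each with both treated retinas below both controls. Such separation, up or down, was common there (52.1% of all genes tested). Fam198a had 5.63 and 4.98 CPM in controls and 2.86 and 2.04 CPM in treated retinas, a log2 fold change of −1.11 ± 0.245. Spon2, the matrix protein, had 4.83 and 5.68 CPM against 1.98 and 2.72 CPM (−1.17 ± 0.25). Tph2 had 5.90 and 7.44 CPM against 3.22 and 3.26 CPM (−1.04 ± 0.21), so its treated libraries nearly coincided.

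Romidepsin gave the same directions for 7 genes, with wider spread. Hmga2 was at 1.27, 1.10 and 0.821 CPM in controls and at 0.991, 3.14 and 6.86 CPM in treated retinas. The groups overlapped, since treated replicate 1 was at the level of the controls, and the log2 fold change of 1.80 ± 0.607 fell to 0.95 without treated replicate 3. Tnfrsf12a stood at 5.69, 11.9 and 8.06 CPM in controls and at 16.4, 39.0 and 28.3 CPM after Romidepsin, with no overlap and a log2 fold change of 1.69 ± 0.343.

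The protease gene 1700027L20Rik showed the widest contrast. Controls of the Romidepsin experiment had 0, 0.731 and 2.26 CPM, the first with 0 counts, which allows up to 0.202 CPM, and treated retinas had 6.50, 27.7 and 35.9 CPM. The log2 fold change of 4.46 ± 0.859 was the highest of the 16049 genes tested there. It was 5.83 without control replicate 3, and 1.61 when the 9 controls of the UNC0642, Romidepsin and DZNep experiments were used. Levels of 9330188P03Rik ran 0.803, 1.99 and 1.18 CPM in controls and 2.04, 6.44 and 5.59 CPM in treated retinas (1.79 ± 0.464), which left the lowest treated library just above the highest control. Map3k8 had 3.55, 7.05 and 4.26 CPM in controls and 2.75, 3.69 and 4.50 CPM after Romidepsin, overlapping groups with a log2 fold change of −0.45 ± 0.301.

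The genes that were lower after UNC0642 were also lower after Romidepsin, each without overlap. Groups did not overlap, in either direction, for 26% of all genes tested after Romidepsin. Fam198a had 9.77, 10.4 and 7.70 CPM in controls and 6.99, 3.58 and 2.23 CPM in treated retinas (log2 fold change −1.14 ± 0.368). Spon2 had 7.36, 10.7 and 7.96 CPM against 3.91, 4.84 and 2.45 CPM (−1.23 ± 0.269). Tph2 had 6.69, 6.27 and 7.29 CPM against 3.75, 1.60 and 1.23 CPM (−1.64 ± 0.374), and −2.28 without treated replicate 1, the library that lay nearest to the controls for Tph2 and Fam198a and was among the controls for Hmga2.

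**Figure D1:**
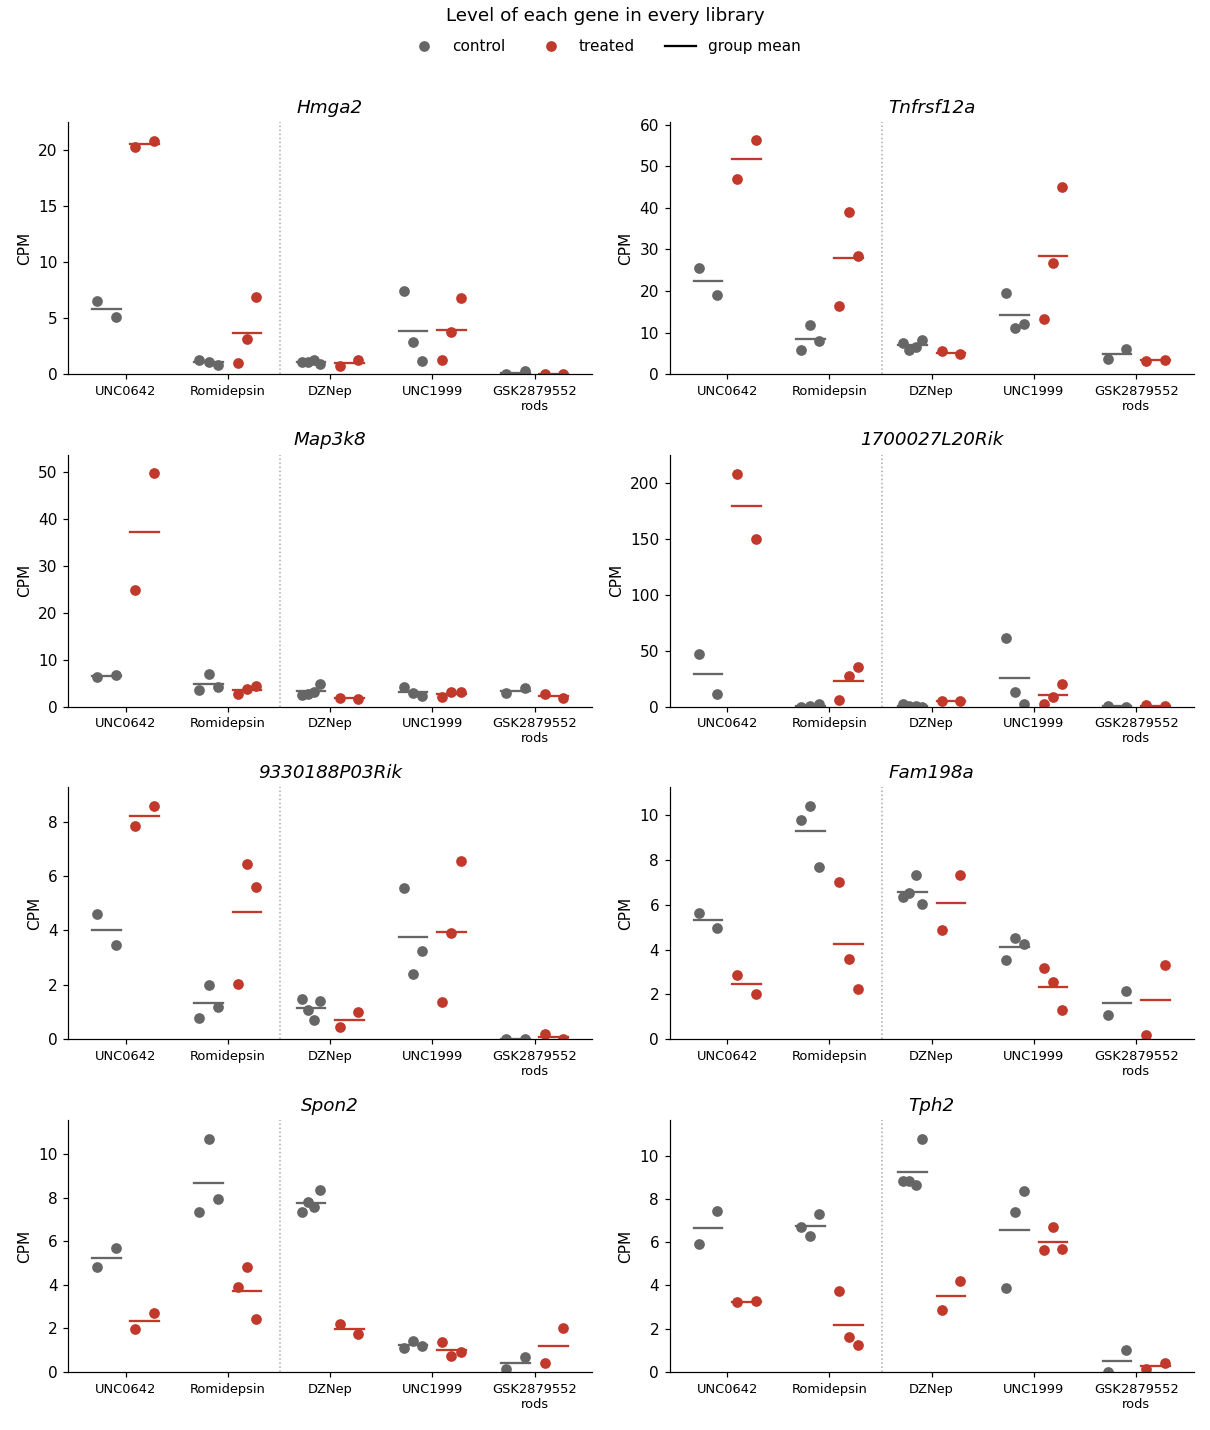
Level in CPM (vertical axis, starting at 0) of each of the 8 genes in all 26 libraries, by experiment (horizontal axis), with control libraries in grey, treated libraries in red and a bar at each group mean. The 2 experiments left of the dotted line chose the genes. Map3k8 is high only in the 2 UNC0642-treated retinas, at 24.8 and 49.8 CPM.

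The selection thresholds were met narrowly by several genes. By the likelihood ratio test of edgeR with Benjamini-Hochberg adjustment, the share of genes called was 0.208% after UNC0642 (34 of 16321) and 3.1% after Romidepsin (498 of 16049). The study reported more calls in both experiments, so the calls given here hold only for the fits made here. The group rests on calls of these 2 contrasts, so nothing is read from these shares. Just inside lay Fam198a, with adjusted p = 0.0475 in UNC0642 and 0.0483 in Romidepsin by that test, and 9330188P03Rik and Tph2, with log2 fold changes of 1.01 and −1.04 in UNC0642. Hmga2 was also just inside in Romidepsin, with adjusted p = 0.0469 by the likelihood ratio test and overlapping groups. Just outside lay Slc7a2, a transporter of cationic amino acids (log2 fold changes −0.91 and −0.99), and the complement gene C4b (−1.40 and −0.93). Of 15835 genes tested in both experiments 10 were called in both, which is 38.5% of the 26 UNC0642 calls and 2.14% of the 468 Romidepsin calls. Besides the 7 genes described here, these were the immediate-early genes Fosl1 and Myc, higher in both, and Kif4, which went in opposite directions. These 3 names were read from the results. With the quasi-likelihood test used for all other tests here, 0% of genes passed after UNC0642, where 2407 of 16321 had an unadjusted p under 0.05, and 0.748% after Romidepsin, and none of the 8 genes was among them.

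The control retinas differed between experiments. Against the mean of the 10 other control retinas, the 2 UNC0642 controls were 3.04-fold higher in Hmga2, 2.31-fold in Tnfrsf12a, 1.74-fold in Map3k8, 3.49-fold in 1700027L20Rik and 2.03-fold in 9330188P03Rik. In each case they still overlapped the range of the other controls, through UNC1999 control replicate 1 for Hmga2, Tnfrsf12a, 1700027L20Rik and 9330188P03Rik and through Romidepsin control replicate 2 for Map3k8. Fam198a, Spon2 and Tph2 in these controls were 0.799, 0.863 and 0.867 times the mean of the others. The 3 UNC1999 controls were likewise above the other controls in 1700027L20Rik (3.55-fold), 9330188P03Rik (2.02-fold) and Hmga2 (1.80-fold), on average and with overlap. When the 7 controls of the Romidepsin and DZNep experiments, which belong to the same series of library numbers, took the place of the UNC0642 controls, the log2 fold change rose from 1.81 to 4.27 for Hmga2, from 1.20 to 2.77 for Tnfrsf12a, from 2.60 to 7.57 for 1700027L20Rik and from 1.01 to 2.74 for 9330188P03Rik. Map3k8 moved less, from 2.51 to 3.24. This set of 7 controls was chosen after the data were seen, and treatment and experiment cannot be told apart in it. For Romidepsin the fold changes went down with the 9 controls of that library series, which include those of UNC0642, from 1.80 to 0.74 for Hmga2 and from 4.46 to 1.61 for 1700027L20Rik.

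**Figure D2:**
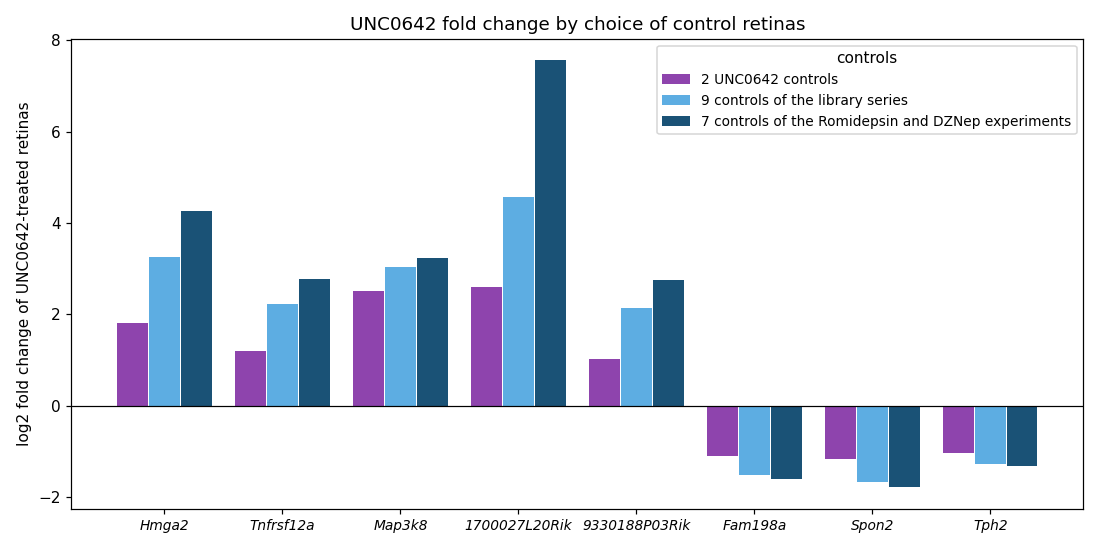
Log2 fold change of the 2 UNC0642-treated retinas (vertical axis) for each of the 8 genes, against 3 choices of control retinas (bar colours). The 4 genes Hmga2, Tnfrsf12a, 1700027L20Rik and 9330188P03Rik change most with the controls, for example from 1.20 to 2.77 for Tnfrsf12a.

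In the DZNep experiment, where the genes can be tested, 3 of the 8 passed (quasi-likelihood test of edgeR, adjusted p under 0.05), against 22.7% of the 16477 genes tested. Spon2 fell. Its 4 controls had 7.36, 7.79, 7.60 and 8.34 CPM and its 2 treated retinas 2.18 and 1.75 CPM, a log2 fold change of −1.95 ± 0.151 (edgeR adjusted p = 0.000319). Tph2 fell from 8.81, 8.82, 8.63 and 10.8 CPM to 2.87 and 4.19 CPM (−1.46 ± 0.181, edgeR adjusted p = 0.0013). Both genes passed in every alternative of the processing, so the gene of serotonin synthesis and the matrix gene were lower after DZNep too. Cell type markers moved in the same retinas. Against DZNep controls, the treated retinas had more rod marker RNA (56270 to 57920 against 18090 to 30630 CPM for 10 markers). They had less of the 6 bipolar cell markers (1620 to 1708 against 1910 to 2077 CPM), the 5 vessel markers (539.1 to 577.9 against 693.2 to 713.2 CPM) and the 8 microglia markers (108.3 to 114.3 against 125.4 to 248.3 CPM), with no marker at 0. Also lower in sum were the 5 amacrine cell markers (1256 to 1266 against 1347 to 1549 CPM) and the 6 cone markers (1386 to 1512 against 1540 to 1888 CPM). All bipolar markers were lower without overlap. Cone Arr3, Pde6c and Pde6h were lower without overlap, and Gnat2, Opn1sw and Cnga3 overlapped. Amacrine Pax6 and Slc6a9 were lower, Gad1 and Gad2 overlapped, and Th was higher (log2 fold change 0.53). Vessel Cldn5 and Kdr were lower, Pecam1 and Rgs5 overlapped, and Acta2 was higher (0.97). Microglia Csf1r, Ptprc, C1qa and C1qb were lower, and Aif1, Cx3cr1, P2ry12 and Tmem119 overlapped. The DZNep and UNC1999 retinas differed in level between the experiments. Spon2 was at 7.36 to 8.34 CPM in DZNep controls and at 0.721 to 1.42 CPM in UNC1999 retinas. The bipolar sum was 1910 to 2077 CPM in DZNep controls and 1356 to 1573 CPM in UNC1999 retinas. Values of r over both experiments therefore include this difference. Over the 12 DZNep and UNC1999 retinas, r of Spon2 with the bipolar, amacrine, Müller glia and vessel sums was 0.955, 0.877, 0.886 and 0.778. For Tph2 these values were 0.582, 0.703, 0.585 and 0.405, the amacrine value being its highest with any list in these 12 retinas. With retinal ganglion cell markers r was 0.0926 for Spon2 and 0.612 for Tph2. Over the 22 retinas, r of Tph2 was higher with bipolar (0.715) and cone markers (0.71) than with amacrine markers (0.683). The part of these cell types in the levels was not tested.

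The third gene that passed was 1700027L20Rik, at 2.38, 0.70, 0.469 and 0.116 CPM in controls and at 4.72 CPM in both treated retinas. It rose by a log2 fold change of 2.38 ± 0.661 (edgeR adjusted p = 0.0323), from controls of 3 to 51 counts. That call was lost with DESeq2 (adjusted p = 0.125), with all 22 retinas in one fit (0.273), and without DZNep control replicate 2 (0.0851) or 3 (0.0818) or treated replicate 1 (0.157) or 2 (0.0922). Without control replicate 1, the highest control, the log2 fold change was 3.48, and with the 9 controls of the UNC0642, Romidepsin and DZNep experiments its sign turned (−0.67).

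The other 5 genes did not pass after DZNep. Map3k8 had 2.47, 2.66, 3.14 and 4.89 CPM in controls and 1.85 and 1.75 CPM in treated retinas, with no overlap (log2 fold change −0.88 ± 0.306, edgeR adjusted p = 0.0704), and it passed with the likelihood ratio test (adjusted p = 0.0499), with DESeq2 (0.0467), with no filter on low counts (0.0417) and without control replicate 1 (0.034). Tnfrsf12a also lay below all its controls, at 5.53 and 4.80 CPM against 7.41, 5.93, 6.47 and 8.30 CPM (−0.44 ± 0.163, edgeR adjusted p = 0.083). For both genes the direction was opposite to UNC0642. Of all genes tested after DZNep, 45.9% had groups without overlap, in either direction. Hmga2 was between 0.718 and 1.27 CPM in all 6 libraries, with overlapping groups (−0.28 ± 0.311, edgeR adjusted p = 0.557). The log2 fold changes of 9330188P03Rik and Fam198a were −0.86 ± 0.431 and −0.15 ± 0.175 (edgeR adjusted p = 0.183 and 0.569).

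After UNC1999, 0 of the 8 genes passed, against 0.602% of 15775 genes, and 0 passed by DESeq2 or the likelihood ratio test. At an unadjusted p under 0.05 were 2 of the 8, beside 3728 of the 15775 genes. Tnfrsf12a, the first of these 2, had 19.6, 11.1 and 12.1 CPM in controls and 13.2, 26.8 and 44.9 CPM in treated retinas (log2 fold change 1.00 ± 0.412, edgeR adjusted p = 0.194). Fam198a had 3.55, 4.53 and 4.24 CPM against 3.19, 2.55 and 1.31 CPM (−0.84 ± 0.303, edgeR adjusted p = 0.148). The Tnfrsf12a groups overlapped, and those of Fam198a did not, as for 27.4% of all genes tested.

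The spread within the UNC1999 groups was wider than the difference between them for the other raised genes. Hmga2 ran 7.42, 2.88 and 1.20 CPM in controls and 1.24, 3.80 and 6.78 CPM in treated retinas, and the sign of its log2 fold change of 0.08 ± 0.694 turned when control replicate 2 or 3 or treated replicate 3 was left out. For 1700027L20Rik, controls had 61.3, 13.1 and 2.50 CPM and treated retinas 2.86, 8.89 and 20.01 CPM, a log2 fold change of −1.24 ± 0.999, which was 0.45 without control replicate 1. Levels of 9330188P03Rik were 5.57, 2.42 and 3.24 CPM against 1.37, 3.89 and 6.54 CPM. Control replicate 1 and treated replicate 3 were the highest of their groups for all 3 genes and for Tnfrsf12a. Map3k8 stayed between 2.02 and 4.19 CPM in all 6 libraries, and Spon2 between 0.721 and 1.42 CPM, below every retina of the other experiments. Its UNC1999 controls averaged 0.166 times the mean of the 9 other controls. Tph2 controls had 3.87, 7.37 and 8.38 CPM and treated retinas 5.66, 6.68 and 5.68 CPM.

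The DZNep and UNC1999 effects were compared directly in one fit over the 22 retinas. The difference passed for 0 of the 8 genes, against 0.00579% of 17274 genes, with 4 of the 8 at an unadjusted p under 0.05. By p these 4 ranked 36 (Spon2), 350 (Tph2), 773 (Tnfrsf12a) and 1045 (1700027L20Rik) among the 17274 genes. The share of all genes under that unadjusted p was not taken, so nothing is read from the count of 4. Spon2 came nearest, with a DZNep effect 1.61 ± 0.382 lower on the log2 scale (edgeR adjusted p = 0.228), which passed with the likelihood ratio test only (adjusted p = 0.0473). The fall of Spon2 and Tph2 after DZNep was therefore not shown to differ from UNC1999.

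**Figure D3:**
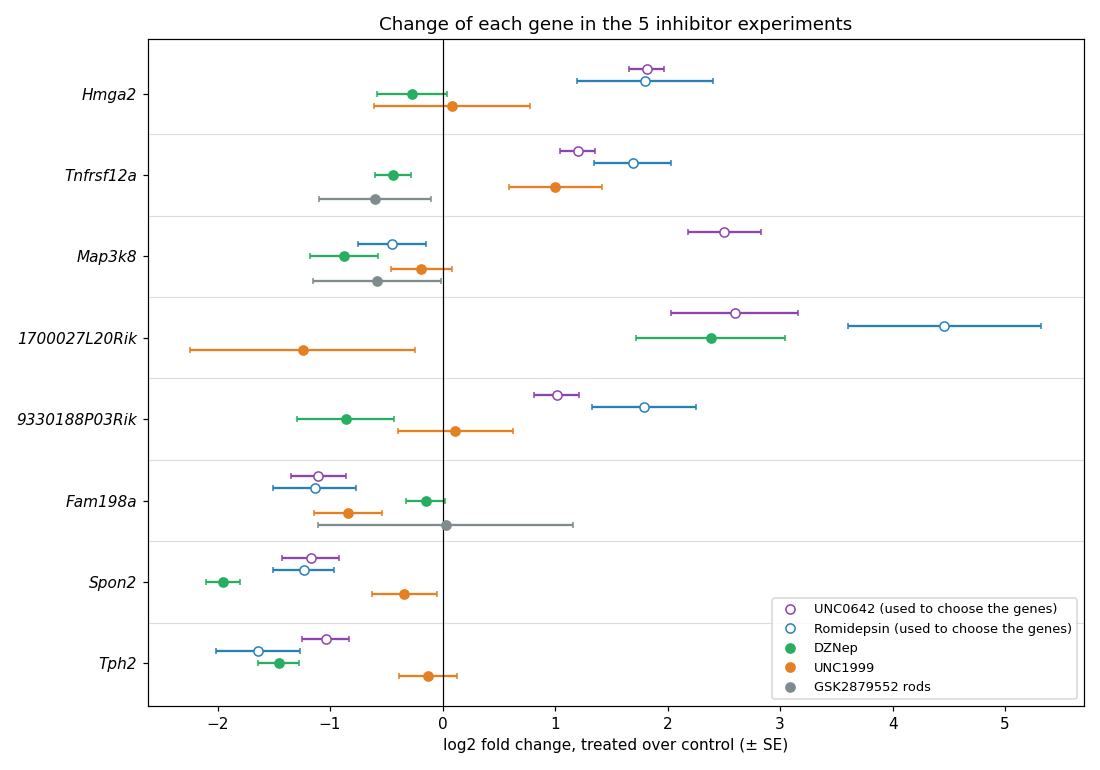
Log2 fold change of treated over control libraries (horizontal axis, bars are ± SE) for the 8 genes (rows) in the 5 experiments (colours), with open symbols for the 2 experiments that chose the genes. Genes with too few reads in sorted rods have no grey point. Spon2 and Tph2 lie left of 0 in the 4 retina experiments, while Map3k8 lies right of 0 only after UNC0642.

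In sorted rods, only Tnfrsf12a, Map3k8 and Fam198a had enough reads to be tested, and 0 of them passed, as did 0% of 14478 genes, none of the 3 having an unadjusted p under 0.05. Tnfrsf12a had 3.74 and 6.14 CPM in control rods and 3.27 and 3.33 CPM after GSK2879552 (log2 fold change −0.60 ± 0.496, edgeR adjusted p = 0.987). Map3k8 had 2.94 and 3.92 CPM against 2.75 and 1.81 CPM (−0.58 ± 0.569, edgeR adjusted p = 0.987). Fam198a spread most, with 1.07 and 2.16 CPM against 0.208 and 3.33 CPM, and its fitted change of 0.03 ± 1.13 became −2.94 without treated replicate 2.

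The other 5 genes had too few reads to be tested in rods. Hmga2 had 0 and 5 counts in the control and 1 and 0 counts in the treated rods, and 9330188P03Rik 0 and 0 against 4 and 0 counts. For 1700027L20Rik there were 3 and 2 counts in controls and 31 and 5 counts in treated rods, the 31 being 1.61 CPM. Spon2 had 1 and 12 counts against 8 and 20, and Tph2 had 0 and 17 against 3 and 4. The rod libraries also differ from the retinas in strain, in cell sorting and, by the methods of the study, in the library kit, so the levels cannot be told apart from these.

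The raised genes other than Map3k8 moved together over the libraries, less tightly for 1700027L20Rik where the selection had not looked. Over the 22 retinas, Pearson's r of log2 CPM was 0.945 for Tnfrsf12a with 9330188P03Rik, 0.871 for Hmga2 with 9330188P03Rik, 0.859 for Hmga2 with Tnfrsf12a and 0.841 for Hmga2 with 1700027L20Rik. Over the 12 libraries of the DZNep and UNC1999 experiments alone the values were 0.893, 0.867, 0.844 and 0.794, and over the 12 control retinas 0.944, 0.80, 0.845 and 0.843. For 1700027L20Rik with Tnfrsf12a and with 9330188P03Rik, r was 0.805 and 0.807 over the 22 retinas, and 0.603 and 0.639 over those of the DZNep and UNC1999 experiments. The labels do not say whether libraries of an experiment were prepared together, and UNC1999 control replicate 1 is high for all 4 genes. These values therefore only describe the libraries. Map3k8 followed them less, with r of 0.462 to Hmga2 in the DZNep and UNC1999 libraries. Fam198a ran against Tnfrsf12a, with r of −0.781 over 22 and −0.943 over those 12 retinas, and along with Spon2 (0.716 and 0.732). Tph2 ran against 1700027L20Rik (−0.611 and −0.64) and, over the 22 retinas, against Tnfrsf12a (−0.498), and its highest r with any of the other 7 there was 0.438.

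Markers of glia moved with these genes, as did markers of amacrine and bipolar cells. The summed level of 6 Müller glia markers, none of them at 0 in any group, was lower in treated than in control retinas after UNC0642 (3173 to 3333 against 4471 to 5109 CPM). It was also lower after Romidepsin (4022 to 5043 against 6454 to 8406 CPM) and DZNep (5228 to 5863 against 7694 to 7972 CPM). After UNC1999 it overlapped (3295 to 5382 against 3270 to 5495 CPM). The markers were all lower without overlap after Romidepsin and DZNep. After UNC0642, Rlbp1 (log2 fold change 0.07) and Kcnj10 (−0.07) overlapped, while Glul, Aqp4, Slc1a3 and Apoe were lower without overlap. After UNC1999, Aqp4 (−0.70), Slc1a3 (−0.49) and Kcnj10 (−0.70) were lower without overlap, while Glul (0.27), Rlbp1 (0.31) and Apoe (−0.62) overlapped. Over the 22 retinas the r of the Müller glia sum on the log2 scale was −0.90 with 1700027L20Rik, −0.848 with 9330188P03Rik, −0.846 with Tnfrsf12a, −0.835 with Hmga2 and 0.83 with Fam198a. Over the 12 DZNep and UNC1999 retinas the values were −0.927, −0.797, −0.808, −0.862 and 0.838, which again include differences in level between the experiments. The sum of 5 amacrine cell markers had r of −0.851, −0.757, −0.765, −0.668 and 0.647 with these genes over the 22 retinas. That of 6 bipolar cell markers had −0.749, −0.742, −0.775, −0.578 and 0.788, and that of 6 cone markers −0.771, −0.734, −0.703, −0.702 and 0.343. In the DZNep-treated retinas Hmga2 was at 0.718 and 1.22 CPM. The 3 UNC1999 and Romidepsin libraries with Müller glia sums of 5043 to 5495 CPM were near, at 0.991 to 1.24 CPM. The Tnfrsf12a of the DZNep-treated retinas, at 5.53 and 4.80 CPM, was lower than the 12.1 to 16.4 CPM of those 3 libraries. The 1700027L20Rik of the DZNep-treated retinas was above that of their controls. UNC0642 control replicate 2, with a sum of 5109 CPM, had more of both Hmga2 (5.08 CPM) and Tnfrsf12a (19.0 CPM). In the UNC1999 experiment the lowest sums, 3270 and 3295 CPM, belonged to control replicate 1 and treated replicate 3, where Hmga2, 1700027L20Rik and 9330188P03Rik were highest.

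The summed level of 5 reactive gliosis markers (Gfap, Vim, Nes, Lcn2 and Cd44) was 2152 to 2719 CPM in the UNC0642 experiment and 471 to 1817 CPM in all other retinas. Treated and control retinas of the UNC0642 experiment overlapped in it (2152 to 2545 against 2204 to 2719 CPM). Its members went different ways, with log2 fold changes of 0.73 for Nes and 0.46 for Vim, both without overlap, and of −0.20 for Gfap and −0.59 for Lcn2, which overlapped (edgeR adjusted p 0.299 or more for each). After Romidepsin, Nes and Vim had 1.26 and 0.64 (edgeR adjusted p = 0.0529 and 0.136). Over the 22 retinas the r of this sum was 0.806 with Hmga2, 0.803 with Tnfrsf12a, 0.823 with 1700027L20Rik and 0.85 with 9330188P03Rik. Rod markers summed to 8187 to 12880 CPM in that experiment and to at least 14740 CPM in all other retinas. The part of glial, rod or other neuronal content in the levels of the 8 genes was not tested. In whole retina, fewer cells of a type and less RNA per cell cannot be told apart. Lens markers reached 70.9 CPM in DZNep treated replicate 2 and at most 2.04 CPM in any other retina.

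**Figure D4:**
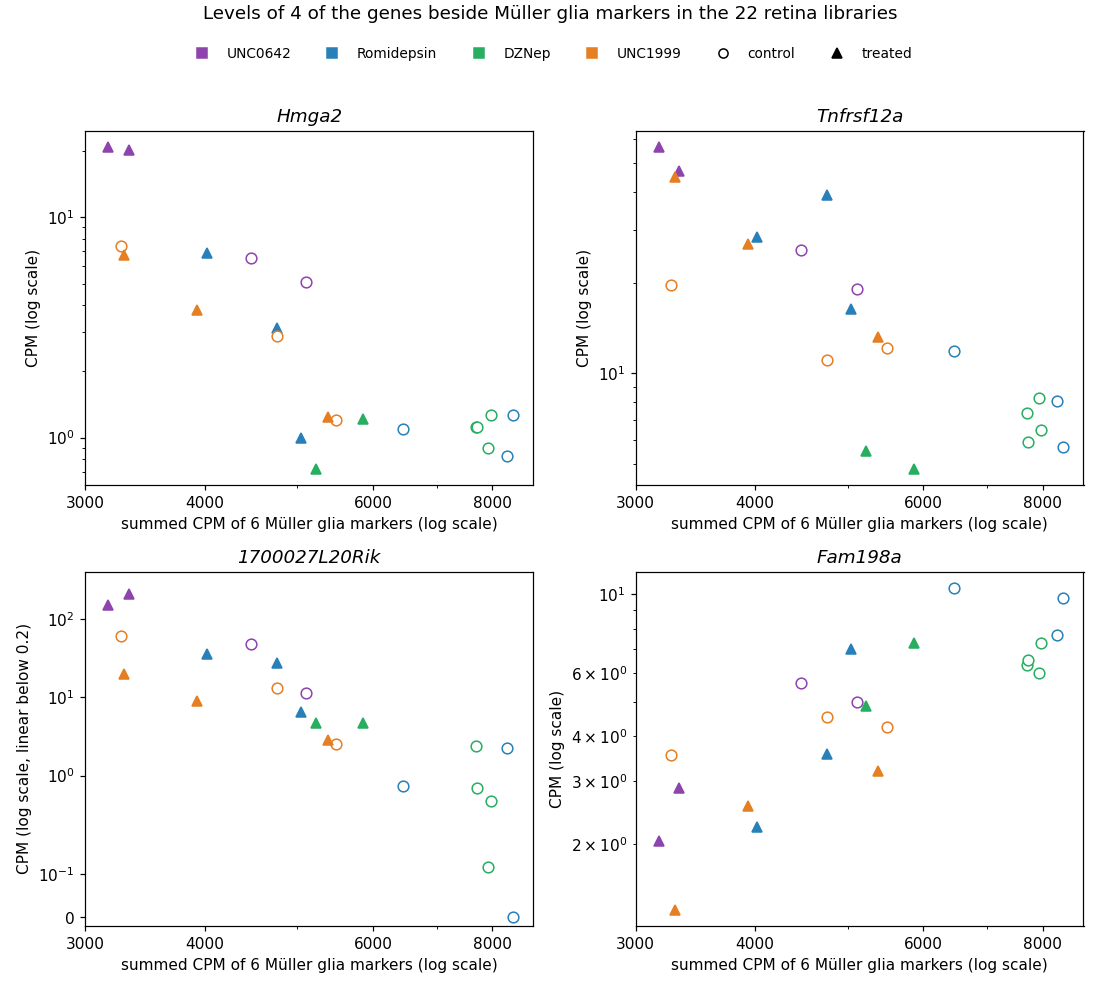
Level in CPM of 4 of the genes (vertical axes, log scale, linear below 0.2 for 1700027L20Rik) against the summed CPM of 6 Müller glia markers (horizontal axes, log scale) in the 22 retina libraries, coloured by experiment, with circles for controls and triangles for treated retinas. Hmga2, Tnfrsf12a and 1700027L20Rik are high where the marker sum is low (r −0.835, −0.846 and −0.90) and Fam198a is low there, while the 2 DZNep-treated retinas have less Tnfrsf12a (5.53 and 4.80 CPM) than other libraries of a like sum.

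Among 16983 genes with at least 10 counts in at least 4 retinas, those most like each gene were sought over the 22 retinas, as a description of shared libraries. Most like Hmga2 were Clcf1, a cytokine of the IL-6 family (r 0.936, and 0.949 in the 12 controls), and Mybbp1a (0.931 and 0.892). Most like Tnfrsf12a were Myc (0.971 and 0.942) and the sialyltransferase gene St3gal4 (0.965 and 0.934), and most like 9330188P03Rik were the tubulin gene Tubb6 (0.947 and 0.939) and Tnfrsf12a itself. For these 3 genes the likeness was also high in controls. The genes most like Map3k8 were the stress transcription factor Atf5 (0.921 in all, 0.757 in controls) and Nab2 (0.885 and 0.638), and those most like Tph2 were Ddit4l (0.913 and 0.646) and the potassium channel gene Kcna5 (0.906 and 0.639), so both pairs were less alike in controls.

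Most like 1700027L20Rik were Pabpc1 (0.906, and 0.897 in controls) and Ftsj3 (0.903 and 0.898), of which Pabpc1 encodes a poly(A)-binding protein. Fam198a ran with Fam69c (0.919 and 0.83) and BC021891 (0.912 and 0.871). Spon2 ran with Arvcf, a catenin gene (0.937 and 0.977), and with Agt, which encodes angiotensinogen (0.927 and 0.929).

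Per exon length (RPKM, the CPM value per kilobase of exon), Tnfrsf12a had the highest median of the 8 genes in the 12 control retinas, 10.1, with a mean of 12.2 ± 6.65 RPKM (SD, n = 12). 1700027L20Rik averaged 13.4 ± 23.2 RPKM with a median of 2.62. Its mean rests on 4 controls of the UNC0642 and UNC1999 experiments, at 12.6 to 69.4 RPKM, while the other 8 controls were at 0 to 2.82 RPKM. Spon2 (2.66 ± 1.42), Tph2 (2.61 ± 0.612), 9330188P03Rik (2.37 ± 1.61) and Fam198a (1.70 ± 0.559) followed in RPKM and overlapped each other. Map3k8 (0.937 ± 0.374) and Hmga2 (0.378 ± 0.353 RPKM, at percentile 35.4 of detected genes) were lowest, and overlapped as well. Tph2 varied least over the controls, by 2.78-fold between lowest and highest, and Spon2 and Hmga2 by 9.62-fold and 9.04-fold.

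Partners of the 8 genes were tested as 65 genes in 6 lists, 1 for each gene with known partners. After UNC0642, 0 of the 57 tested passed by edgeR, 1 by the likelihood ratio test and 2 by DESeq2. At an unadjusted p under 0.05 were 6 of the 57, beside 2407 of all 16321 genes. The median log2 fold change of the 57 was 0.02 beside 0.00 for all genes. The nearest was Hmga1, the close relative of Hmga2, at 77.8 ± 9.21 CPM in controls and 116 ± 8.59 CPM in treated retinas (SD, n = 2 each; log2 fold change 0.57, edgeR adjusted p = 0.299). After Romidepsin, 3 of 57 rose and 0 fell, beside 0.748% of all genes that passed there. They were Lin28a (1.42 ± 0.243, edgeR adjusted p = 0.048), an RNA-binding protein that blocks the let-7 microRNAs which restrain Hmga2, Tnip2 (1.02 ± 0.137, adjusted p = 0.0277), a binding partner of TPL2, and Spry2 (0.91 ± 0.123, adjusted p = 0.0277), a feedback inhibitor of ERK signalling. Each of the 3 calls was lost when any 1 control or treated replicate 3 was left out.

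By list, 10, 11 and 9 of the 12 ligand and signalling partners of Tnfrsf12a were tested in UNC0642, Romidepsin and UNC1999, and 0 passed. In DZNep 1 was higher and 1 lower (Birc2 and Traf5) of 10 tested, where 22.7% of all genes passed. Tnfsf12, the gene of the ligand TWEAK, was not found among the symbols of the read counts, so it was not tested. The 15 partners of Map3k8 were genes of the MEK and ERK pathway and of NF-kB signalling. Of these, 2 rose after Romidepsin (Tnip2 and Spry2, beside 0.748% of all genes), 4 after DZNep (beside 22.7%) and 1 after UNC1999 (beside 0.602%). The last of these was Spry2, which rose by a log2 fold change of 0.71 ± 0.116 (edgeR adjusted p = 0.0496). It also rose after DZNep (0.39 ± 0.0537, edgeR adjusted p = 0.00187), where Map3k8 itself did not pass.

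Of the 10 relatives and receptors of Spon2, 1 rose and 2 fell after DZNep. Spon1, which encodes F-spondin, fell from 394.8 ± 6.06 (SD, n = 4) to 261.9 ± 19.4 CPM (n = 2), a log2 fold change of −0.60 ± 0.055 (edgeR adjusted p = 0.000529). Of the 6 kinase relatives of Fam198a 2 fell after DZNep. The 15 genes of serotonin and melatonin metabolism around Tph2 had 0 passing in all 5 experiments, with 6 to 11 of them tested. In all, 11 of 57 partners passed after DZNep, beside 22.7% of all genes, 1 of 53 after UNC1999 and 0 of 40 in sorted rods. In the rods 0 passed by DESeq2, and 1 had an unadjusted p under 0.05, beside 711 of all 14478 genes.

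The nearest annotated genes on either side were looked at for changes that extend beyond a locus. Of the 20 nearest or overlapping genes, 10 or 11 were tested in each experiment. The only one that passed was Gm10557, a pseudogene to the left of Map3k8, which rose after DZNep (0.46 ± 0.135, edgeR adjusted p = 0.0407). Hcfc1r1, which overlaps the end of Tnfrsf12a, had log2 fold changes of 0.13 after UNC0642 and −0.07 after Romidepsin, beside 1.20 and 1.69 for Tnfrsf12a. Ecel1, on the far side of 1700027L20Rik, had 1.32 ± 0.519 after Romidepsin (edgeR adjusted p = 0.212).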

How the data were processed

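RNA-seq libraries of 22 rd10 retinas and 4 preparations of sorted rods were grouped by the labels of the samples. According to the methods and the processing notes, the authors trimmed reads with BBDuk, aligned them to NCBIM37 (Ensembl 67) with HISAT2 2.2.1 and counted them per gene with HTSeq 0.11.2. The strand setting is not given in the sources used here. The deposited values were raw counts of 37991 genes, of which 37205 were given symbols from GENCODE M1. The study prepared rod libraries with a low-input kit, while the labels name 1 kit for all. In the genotype and compound labels of the DZNep and UNC1999 samples a number increases by 1 from sample to sample, and groups were taken from the titles.

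Counts were filtered with filterByExpr, normalized by TMM and tested with the quasi-likelihood test of edgeR 4.0.16 (R 4.3.3) within each experiment. The study itself used a likelihood ratio test, which served as an alternative. A gene passed at an adjusted p under 0.05 (Benjamini-Hochberg, over all genes tested). CPM used TMM factors over the 22 retinas and, separately, over the 4 rod libraries, so levels are compared across these 2 sets with care. RPKM used exon lengths of GENCODE M1. Correlations between genes used log2 CPM (prior count 2), and those with marker sums used log2 of CPM plus a fixed offset instead. The scripts were tested on simulated data. Alternatives were DESeq2 1.42.0, the likelihood ratio test, RLE normalization, other filters and controls, a replicate block and leaving out each replicate. The genes and lists described were chosen with earlier results of these data known. Named besides the 8 genes were partners that passed after UNC0642 or Romidepsin, the 2 with the smallest p-value in each other experiment, nearest genes, and the 2 genes most like each. Other names were chosen after their values were seen. Replicates with the same number did not deviate together in all pairs (r −0.28 to 0.23), and no 2 libraries of a group were copies (chi-square per gene at least 3.72).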

Additional observations from a re-analysis of the deposited data

Results flagged for a closer look

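Tph2 in DZNep control replicate 4 was at 10.8 CPM, set apart from the other 3 controls (8.63 to 8.82 CPM) by a gap of 0.91 of the range of the group. It was the only such value among the 8 genes in this group, the only group with enough libraries to look. Chance gives such a gap in about 1 of 20 groups. The log2 fold change of Tph2 after DZNep was −1.37 without it, beside −1.46 with it.

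Tnfrsf12a moved in opposite directions in different experiments. All treated retinas lay above all controls after UNC0642 (log2 fold change 1.20) and after Romidepsin (1.69), and all lay below after DZNep (−0.44). Map3k8 likewise was higher in all treated retinas after UNC0642 (2.50) and lower in all after DZNep (−0.88). Groups lay apart, up or down, for 52.1%, 26% and 45.9% of all genes tested after UNC0642, Romidepsin and DZNep. The differences between experiments were not tested, since UNC0642 and Romidepsin chose the genes, and the opposite directions are values only.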

How the results depend on the processing

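After DZNep the count of the 8 genes that passed was 3 and ranged from 2 to 4 over all alternatives. After UNC1999 and in sorted rods it was 0 throughout. In the UNC0642 and Romidepsin experiments, where the values chose the genes, it was 0 and 0, and became 8 and 7 with the likelihood ratio test, with or without the fold threshold, 2 and 7 with DESeq2, 8 and 5 with no filter on low counts, 1 and 6 with all 22 retinas in one fit, and 8 and 2 with the 9 controls of the library series. With the 7 controls of the other experiments it was 8 for UNC0642. Because calls in these experiments chose the genes, the counts for UNC0642 and Romidepsin follow from the selection. They describe how it depends on the settings and are not a test. Leaving out replicates gave 0 to 4 for UNC0642 and 0 to 6 for Romidepsin. The difference between DZNep and UNC1999 passed for 1 gene with the likelihood ratio test. Partner genes passing after DZNep (11) became 1 with the fold threshold by either test, 3 with all 22 retinas, 6 with the 9 controls and 2 to 13 without 1 replicate. After UNC1999 (1) they became 8 with the likelihood ratio test and with DESeq2, 2 with the fold threshold added to it and 0 with the fold threshold alone, 6 with no filter, 7 with all 22 retinas and 0 to 12 without 1 replicate. After UNC0642 (0) they became 1 with the likelihood ratio test, 2 with DESeq2, 5 with no filter, 8 with the 9 controls, 23 with the 7 controls and 0 to 1 without 1 replicate. After Romidepsin (3) they became 11 with the likelihood ratio test, 5 with the fold threshold added to it, 10 with DESeq2, 10 with no filter, 13 with all 22 retinas, 10 with the 9 controls and 0 to 7 without 1 replicate. In rods they ranged from 0 to 2 without 1 replicate. The cause of these shifts was not tested. The share of all genes passing was not taken for most of these alternatives, so those counts have no background beside them. The replicate block, whose numbers did not pair the samples, gave 8 genes and 3 partners for UNC0642, 2 genes and 0 partners for Romidepsin, 2 genes and 1 partner for DZNep and 0 partners for UNC1999, and in rods Fam198a turned to −0.56. With the 9 controls, 1700027L20Rik turned to −0.67 after DZNep. Signs also turned without 1 replicate, all of values that did not pass. After DZNep, log2 fold changes then ranged from −0.62 to 0.15 for Hmga2 and from −0.43 to 0.15 for Fam198a. After UNC1999 they ranged from −0.58 to 0.96 for Hmga2, −0.34 to 0.055 for Map3k8, −2.10 to 0.45 for 1700027L20Rik, −0.48 to 0.52 for 9330188P03Rik and −0.39 to 0.078 for Tph2, and in rods from −2.94 to 1.00 for Fam198a. Genes of few counts, such as 1700027L20Rik in controls and Hmga2 in rods, are limited by depth, since intervals and floors cover counting error only.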
